A study of Caenorhabditis elegans with 2 samples.

Results

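RNA polymerase III (Pol III) was mapped on the genome of whole young adult Caenorhabditis elegans through RPC-1, its biggest subunit, by chromatin immunoprecipitation with sequencing (ChIP-seq). The strain, YL517, carries an RPC-1 transgene tagged with GFP and FLAG at its C terminus, and the sampled population was of mixed sex, per the labels. The 2 libraries are biological replicates 1 and 2 of 1 group, with no statement of how their cultures were kept. The target reads PRC-1 in 1 free-text label and rpc-1 in those of the antibody and the strain, and the second reading was used. With no other group, no conditions could be compared, and all values below describe these 2 libraries.

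The regions described here are peaks at non-coding RNA genes that belong to none of the well-known small RNA classes. They were chosen by their measured signal value, the score that the authors' peak caller gave each peak, and by position. A peak of the pooled list was kept where the signal value was 50 or more and where the interval, widened by 100 bp on each side, reached a gene annotated as ncRNA, lncRNA or antisense RNA. Peaks that also reached a tRNA gene, tRNA pseudogene, rRNA, snRNA, snoRNA or miRNA gene, or a gene of RNase P, RNase MRP, Y or SRP RNA, were left out. This gave 121 member peaks among 2318 pooled peaks of signal value 50 or more (5.22%, 95% Wilson interval 4.39 to 6.20%), and among 24907 pooled peaks in all. Signal value and overlap with these genes fixed the choice, so both are given as description.

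Pol III makes short RNAs such as tRNA, 5S rRNA and U6 snRNA, and it stops at short runs of T in the coding strand. At tRNA genes the promoter lies inside the gene: an A box near the start and a B box further in are bound by the factor TFIIIC. At U6 and RNase P RNA genes the promoter instead lies upstream, as a proximal sequence element and a TATA box. Many short RNA genes of the worm annotation carry only a systematic name and are recorded as unclassified, so the polymerase that transcribes them and their role are not known from the annotation.

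The strongest member peaks are shown first by the DNA under their summits, because the letters of the promoter types differ between them. All sequences are from the RefSeq WBcel235 assembly, which is the ce11 build of the peak lists, and are written 5′ to 3′ on the named strand. In the first set, capitals mark an A box, a B box and the first T run after it, all on 1 strand. The A box was searched as TGGCNNA, with A also allowed as the second letter and T as the fourth, the B box as GTTCGANNC or GTTCAANNC, and the T run as 4 or more T. The sites are Y46E12A.11 (chrIII:1744612-1744699, minus strand), T28D6.13 (chrIII:11371351-11371484, minus), Y57G11C.1146 (chrIV:14875366-14875459, plus), C05G5.9 (chrX:14761480-14761633, plus) and F02D10.13 (chrX:13444458-13444525, plus). The tRNA gene F02D10.t3 (chrX:13443386-13443504, minus) is no member and stands beside F02D10.13 for comparison, with all matches to the box letters in capitals.
Y46E12A.11: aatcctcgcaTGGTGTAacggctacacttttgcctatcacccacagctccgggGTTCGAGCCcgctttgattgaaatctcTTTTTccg
T28D6.13: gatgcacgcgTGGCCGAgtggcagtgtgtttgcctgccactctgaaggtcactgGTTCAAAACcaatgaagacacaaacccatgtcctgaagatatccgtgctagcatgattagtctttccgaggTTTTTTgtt
Y57G11C.1146: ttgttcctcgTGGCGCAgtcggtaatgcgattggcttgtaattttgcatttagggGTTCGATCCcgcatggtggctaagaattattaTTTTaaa
C05G5.9: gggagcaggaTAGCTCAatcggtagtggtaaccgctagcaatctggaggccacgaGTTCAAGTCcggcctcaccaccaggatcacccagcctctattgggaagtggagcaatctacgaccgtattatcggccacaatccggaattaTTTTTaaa
F02D10.13: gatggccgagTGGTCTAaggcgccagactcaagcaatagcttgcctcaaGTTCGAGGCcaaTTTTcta
F02D10.t3: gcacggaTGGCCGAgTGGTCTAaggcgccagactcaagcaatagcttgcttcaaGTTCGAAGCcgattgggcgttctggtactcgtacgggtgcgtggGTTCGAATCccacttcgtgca

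The second set shows sequences that resemble each other around A and B boxes but are not like any annotated tRNA gene over their length (the alignment at K02D3.4 covers 24 bases). It holds ZK816.9 (chrX:3348041-3348191, plus strand), K02D3.4 (chrX:13697683-13697840, plus) and C14F11.14 (chrX:6207844-6208008, plus), with capitals as in the first set.
ZK816.9: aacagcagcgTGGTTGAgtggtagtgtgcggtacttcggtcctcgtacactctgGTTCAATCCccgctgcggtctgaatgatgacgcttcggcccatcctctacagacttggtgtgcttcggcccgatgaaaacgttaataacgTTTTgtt
K02D3.4: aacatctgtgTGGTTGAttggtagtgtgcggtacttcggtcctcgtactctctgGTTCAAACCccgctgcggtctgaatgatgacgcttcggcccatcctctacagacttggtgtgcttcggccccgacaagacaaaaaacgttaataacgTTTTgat
C14F11.14: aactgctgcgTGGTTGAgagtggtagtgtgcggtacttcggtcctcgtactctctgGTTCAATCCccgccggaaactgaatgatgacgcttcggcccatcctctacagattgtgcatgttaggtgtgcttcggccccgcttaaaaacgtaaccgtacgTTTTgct

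The third set has no B box at the summit and is shown because the genes share an upstream pair of words and their own first and last letters. Capitals mark the word GTC with 4 further bases and then AC or GC, the word TATAA or TATAT after it, and the T run at the annotated gene end. The genes are F08G2.13 (chrII:13834447-13834581, minus strand), W01D2.7 (chrII:14804424-14804559, plus), W01D2.8 (chrII:14801348-14801484, minus), C18C4.17 (chrV:5576163-5576374, plus) and CD4.17 (chrV:5588009-5588179, plus). CD4.17 lacks the pair in this spelling, since its TATA-like letters differ. The region upstream of the RNase MRP RNA gene mrpr-1 (chrII:7200174-7200233, plus), which is no member, is shown for comparison.
F08G2.13: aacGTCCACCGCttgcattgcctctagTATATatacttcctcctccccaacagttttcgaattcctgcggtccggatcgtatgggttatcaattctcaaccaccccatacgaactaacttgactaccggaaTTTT
W01D2.7: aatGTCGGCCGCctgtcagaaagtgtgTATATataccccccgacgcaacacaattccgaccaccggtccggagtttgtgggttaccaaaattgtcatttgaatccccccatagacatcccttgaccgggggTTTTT
W01D2.8: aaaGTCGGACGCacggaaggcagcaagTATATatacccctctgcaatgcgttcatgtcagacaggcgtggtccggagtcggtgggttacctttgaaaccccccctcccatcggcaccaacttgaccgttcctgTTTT
C18C4.17: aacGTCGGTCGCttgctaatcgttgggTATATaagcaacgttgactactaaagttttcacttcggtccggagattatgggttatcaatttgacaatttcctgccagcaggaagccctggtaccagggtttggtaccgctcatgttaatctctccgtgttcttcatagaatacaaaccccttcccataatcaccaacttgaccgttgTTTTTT
CD4.17: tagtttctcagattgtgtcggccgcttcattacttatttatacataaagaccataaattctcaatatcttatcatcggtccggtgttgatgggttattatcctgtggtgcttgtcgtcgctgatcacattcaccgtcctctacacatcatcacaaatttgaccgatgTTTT
mrpr-1: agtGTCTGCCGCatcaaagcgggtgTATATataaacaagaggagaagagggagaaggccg

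The 121 summits fell nearest to 99 genes, and the widened intervals reached 130 of the 8049 annotated genes of these 3 classes. Of the peaks, 110 were nearest to an ncRNA gene, 8 to an lncRNA gene and 3 to an antisense RNA gene. Some intervals hold several summits, each listed as a peak of its own, so the members are not independent of each other: they lay in 101 distinct intervals that merged to 96 regions, and 25 of them shared a region with a stronger member. Neighbouring summits of a region lay 204 bp apart in the median (25 gaps, 199 to 371 bp). Signal values ran from 50.3 to 5779 with a median of 267 and quartiles of 95.2 and 701, against a median of 286 with quartiles of 104 and 1775 over the other 2197 pooled peaks of signal value 50 or more. Signal values of 1000 or more were reached by 20 members, and 32 stayed below 100.

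**Figure D1:**
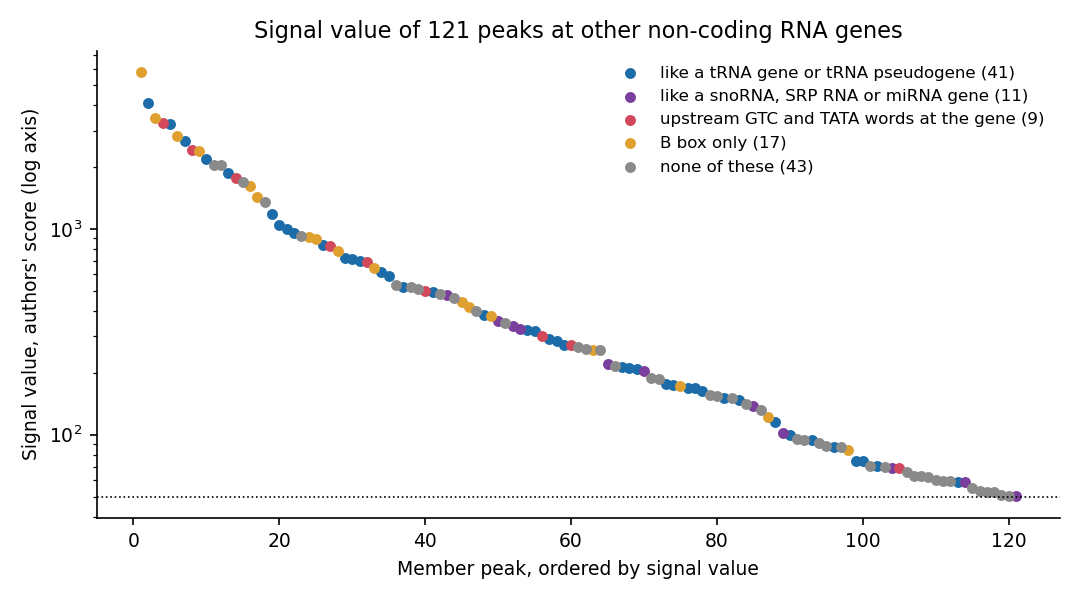
Signal value on a log axis for each of the 121 member peaks, ordered from highest to lowest, with the dotted line at the minimum of 50. Colour gives the first of the listed sequence groups that a peak belongs to, and the groups run from 41 peaks like a tRNA gene or tRNA pseudogene to 43 peaks with none of these features, whose median signal value was 141.

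The library depth is unknown here, since the peak lists hold no read counts, and control libraries were not analysed here. Each replicate list has a scale of its own, and the pooled list was made from both libraries, so the replicate values are no independent test of the choice. Every member was overlapped in both replicate lists, as were 2187 of the 2197 other pooled peaks of signal value 50 or more. In replicate 1 the strongest overlapping peak had a median signal value of 202 and a median rank of 1106 among 26455 peaks, and in replicate 2 of 150 and 1089 among 27629. Of the members, 110 (90.9%, Wilson 84.5 to 94.8%) were overlapped by one of the 2318 strongest peaks in each replicate list, against 89.4% of all pooled peaks of signal value 50 or more. The same number, 110 of 121, was in the optimal list, against 91.6% of the pooled peaks of signal value 50 or more. The authors made that list through the irreproducible discovery rate, which compares ranks between replicates. Among the members, though, all with a pooled signal value of 60.1 or more were in it and all at 59.6 or less were not. Being in it thus followed the signal value used for the choice and is no separate sign of replicate agreement. Counting any overlap with an optimal peak gave 92.6% of members against 93.1% of those pooled peaks. Summits in the replicate lists lay 15 bp apart in the median, and 75 of 121 lay within 20 bp of each other.

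**Figure D2:**
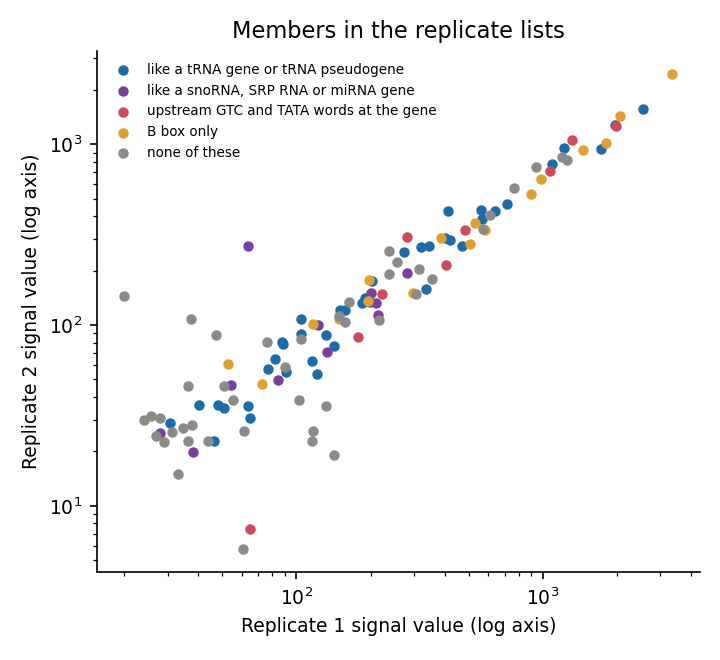
Signal value of each member in replicate 1 (x axis) and replicate 2 (y axis), both log axes with their own scale, for the peak of each list whose summit is nearest; colours are the sequence groups. The scales of the lists differ, so equal values do not mark equal enrichment, and the wide scatter lies at the weak peaks.

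K10H10.14 on chromosome II carried the highest member peak, with a signal value of 5779 in the pooled list. In the replicate lists it had 3357 in replicate 1 (rank 46) and 2437 in replicate 2 (rank 31). Its gene is 284 bp long, the longest among the 50 candidates described below, and the summit lay inside it, 122 bp from its start. A B box was found on the plus strand after the summit, but no A box in the required range, and the window was not like any annotated RNA gene of the excluded classes. The letters around the summit (chrII:14496956-14497076, plus strand) are shown with the B box in capitals.
K10H10.14: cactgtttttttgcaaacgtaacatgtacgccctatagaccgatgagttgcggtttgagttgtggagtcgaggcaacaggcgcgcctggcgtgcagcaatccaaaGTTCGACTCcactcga

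Y46E12A.11 and T28D6.13 on chromosome III followed, with genes of 53 and 76 bp. Y46E12A.11 had a signal value of 4095 in the pooled list, 2559 in replicate 1 and 1566 in replicate 2, with the summit 3 bp inside the gene start. T28D6.13 had 3470, with 2051 in replicate 1 and 1429 in replicate 2, and it lies in an intron of tba-7, an alpha-tubulin gene. Its box set runs on the minus strand while the gene is annotated on the plus strand. Both peaks ranked among the 297 strongest of replicate 1 and the 269 strongest of replicate 2.

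F02D10.13 on the X chromosome had a signal value of 3238 in the pooled list, 1972 in replicate 1 and 1285 in replicate 2. Its annotated gene of 63 bp is on the minus strand, and the box set on the plus strand. Over 68 bases this site was 95.6% identical to the tRNA gene F02D10.t3, which lies 976 bp from the summit and so outside the widened interval. The box set resembles the first part of that tRNA gene, as the letters above show. The B box of the site stands at the place of the earlier B box match in F02D10.t3, not of the match near the end of that gene.

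At Y57G11C.1146, C05G5.9 and C48E7.13 the summit lay outside the annotated gene, by 116, 246 and 513 bp. Y57G11C.1146 had a signal value of 2815 in the pooled list, 1805 in replicate 1 and 1013 in replicate 2. C05G5.9 had 2174, with 1219 and 956 in replicates 1 and 2. In C05G5.9 the window was 85.7% identical over 70 bases to the tRNA pseudogene F53B1.t1, and at Y57G11C.1146 and C05G5.9 the box set, not the annotated gene, lay under the summit. C48E7.13, whose gene is 145 bp long, had 1868 in the pooled list, 1095 in replicate 1 and 777 in replicate 2. No B box was found there, and the window was 86.4% identical over 66 bases to F53B1.t1.

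ZK816.9, K02D3.4, T22B2.9 and C14F11.14 formed a group of related sequences on the X chromosome. Their pooled signal values were 3260, 2660, 2378 and 1425, in that order. In replicate 1 the values were 1990, 1724, 1452 and 894, and in replicate 2 they were 1264, 939, 935 and 531, again in that order. The alignments between their windows were 83.8 to 90.6% identical over 130 to 182 bases. All 4 summits lay inside the genes, which are annotated at lengths of 57, 97, 100 and 147 bp. Searching the genome with the ZK816.9 gene found 4 copies over at least 80% of its length, the gene itself included. All 4 were on X, at an annotated ncRNA gene and within 100 bp of a pooled peak of signal value 50 or more. The 4 related genes above were chosen for such a peak, so where the copies are these genes, that count is fixed by the choice. The lowest identity among the copies was 93.22%, and whether their peaks share reads was not tested. The annotated strand was that of the boxes at ZK816.9 and C14F11.14 and the opposite one at K02D3.4 and T22B2.9.

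F08G2.13, F08G2.12, W01D2.7, W01D2.8, C18C4.17 and CD4.17 (F08G2.12, W01D2.8 and C18C4.17 chosen after their values were seen) were the members with the shared first letters, and none had a B box within 100 bp of the summit. F08G2.13 had a signal value of 2412 in the pooled list, 1309 in replicate 1 and 1062 in replicate 2. CD4.17 had 2040, with 1255 in replicate 1 and 819 in replicate 2, and W01D2.7 had 1769, with 1066 and 715. W01D2.8 and C18C4.17 were weaker, at 338 and 271 in the pooled list, 211 and 178 in replicate 1, and 133 and 85.6 in replicate 2. The summits lay 14, 44, 1, 22 and 36 bp from the annotated starts of F08G2.13, CD4.17, W01D2.7, W01D2.8 and C18C4.17, all inside the genes. F08G2.12 had 302 in the pooled list, at a second summit in the interval of F08G2.13 that lay 168 bp outside the F08G2.12 gene. At each of the 5 genes with the summit inside, a run of 4 or more T lay within 10 bp of the annotated gene end, as it did at 38 of the 99 genes nearest a member summit (38.4%) and at 25.9% of all 8049 genes of these 3 classes.

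The letters that these genes share were then searched over the genome, a step chosen after their values were seen. The word GGTCCGG, then 6 bases and the word TGGGTTA occurred at 14 sites on both strands, and all 14 were at an annotated short RNA gene on the same strand. At 12 of the 14 the upstream pair was present, and at all 14 the word TTGAC was followed by a T run within 20 bases. A pooled peak of signal value 50 or more lay within 100 bp of 11 sites. Member peaks were at 6 of these, and since the words were spelled from members, which were chosen for such a peak, that part of the count is fixed by the choice. Of the 8 sites without a member peak, 5 had another pooled peak of 50 or more, but neighbouring sites share peaks and the 5 had 2 different strongest peaks. They were B0361.13, mir-2214, M163.12, M163.13 and M163.15, which were not members because their peaks reached a miRNA or snRNA gene. Sites CD4.18, CD4.19 and F35E12.11 had no pooled peak of 50 or more, and the strongest within 100 bp reached 42.8, 42.8 and 17.3. No role is given in the annotation for the 12 of these genes that are annotated as ncRNA.

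**Figure D3:**
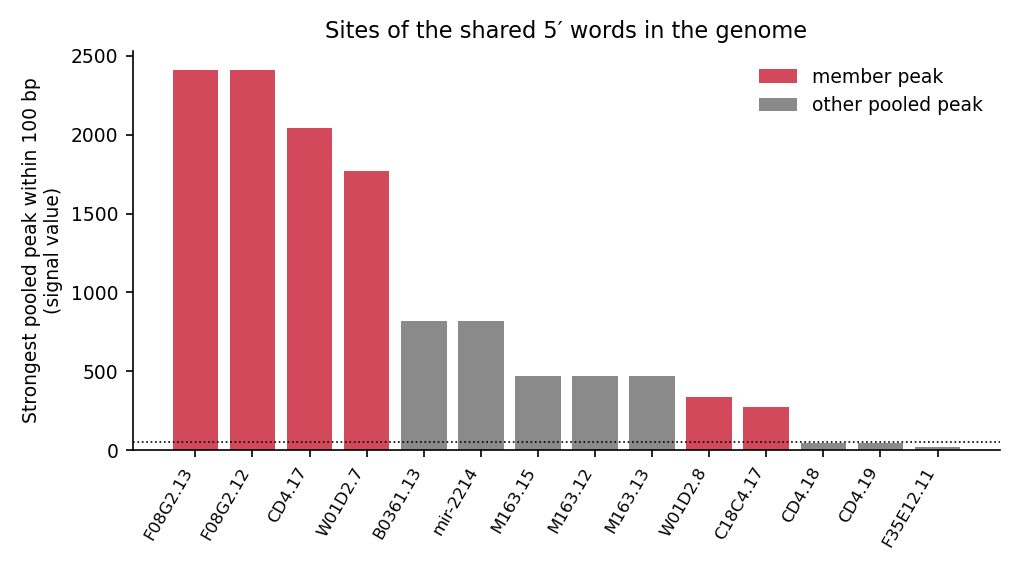
Signal value of the strongest pooled peak within 100 bp of each of the 14 genome sites with the shared first letters, named by the gene at the site, with the dotted line at 50. Sites in 1 peak interval have the same value (2412 for F08G2.13 and F08G2.12), and 3 sites lie below the line.

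The pair of upstream words was spelled from genes that are not members: by construction it was present before all 3 of the RNase P, RNase MRP and Y RNA genes and before 16 of 22 U6 snRNA genes. The GTC word was asked for 30 to 100 bp before the gene start, and the TATA word 10 to 35 bp after it. Among the 99 genes nearest a member summit, 8 had the pair (8.08%, Wilson 4.15 to 15.1%), against 0.522% of all 8049 genes of these 3 classes, 0.654% of 612 tRNA genes and 1.87% of 107 other snRNA genes. Besides F08G2.13, F08G2.12, W01D2.7, W01D2.8 and C18C4.17 these were ZK816.9, lfor-1 and lfor-2. Relative to the gene start the GTC word began at -55 bp in the median, with a range of -76 to -54 bp. The genes lfor-1 and lfor-2 on chromosome II, named outside the rule, are 299 and 302 bp long, and 2.34% of the 31-base words in the window of the lfor-2 summit occur once in the genome. Their pooled signal values were 500 at lfor-1 and 825 at lfor-2. Reads from sequence that occurs more than once cannot be told apart.

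F09E10.13, Y40A1A.6, K03D7.12 and Y75D11A.8 complete the strongest candidates at short genes. F09E10.13 lies in an intron of F09E10.5 on X and had 2050 in the pooled list, 1199 in replicate 1 and 856 in replicate 2, with the summit 11 bp from the start of a gene of 84 bp. Neither a B box nor the upstream pair was found there, nor at K03D7.12 on chromosome V, where the value was 1349, with 767 and 577 in replicates 1 and 2. Y40A1A.6 had 1622, with 980 and 640, and Y75D11A.8 had 1049, with 639 and 429, both on X and with a full box set. The 73 bases around the A and B boxes of Y40A1A.6 had 5 copies in the genome, the site itself included. All were on X and within 100 bp of a pooled peak of 50 or more, and 2 were at a gene of these 3 classes. Y40A1A.6 was chosen for such a peak, so the count is partly fixed by the choice.

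A candidate was defined by position as a member in the optimal list whose summit lay within 50 bp of a gene of 300 bp or less. There were 50 candidates at 50 genes, 26 of them on X. Their signal values had a median of 398 with quartiles of 170 and 1406. Of the 50 candidates, 48 were among the 2318 strongest peaks of both replicate lists. Candidates had to be in the optimal list, which was made from the same libraries, so that count is largely fixed by the choice. The exceptions at replicate level include F56F3.10, a weak candidate named after its values were seen, which had 60.5 in replicate 1 and 5.79 in replicate 2 (rank 16922). Candidate genes were 52 to 284 bp long with a median of 122.5 bp. A full box set was found at 21 candidates (42.0%, Wilson 29.4 to 55.8%), against 50.1% of all pooled peaks of 50 or more, and the upstream pair at 5. Most like a tRNA gene or tRNA pseudogene were 20 of the 50 candidates (Wilson interval 27.6 to 53.8%), against 46.8% of peaks at other genes only and 45.0% of peaks at no gene. At 11 neither a B box, the pair nor likeness to any gene of the excluded classes was found. Their signal values lay between 60.1 and 2050, and CD4.17 with its shared letters was among them.

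**Figure D4:**
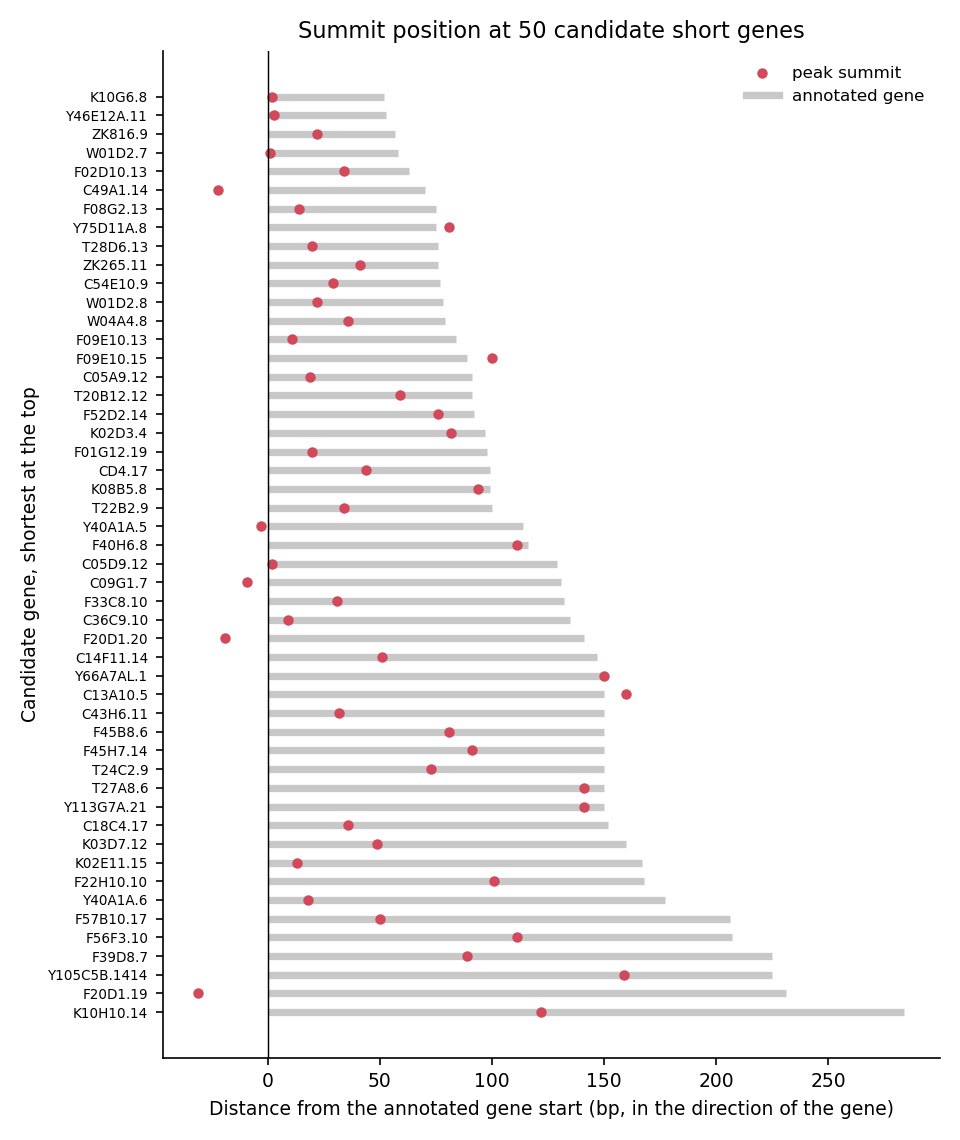
Position of the peak summit (red points) in the 50 candidate short genes, drawn as grey bars from the annotated start at 0, in bp in the direction of the gene, with the shortest gene at the top. Summits lie between -31 and 160 bp from the start, with a median of 36 bp.

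Over all members, the summit lay inside the nearest gene at 57 of 121 peaks (47.1%, Wilson 38.4 to 56.0%), within 50 bp at 67 and within 100 bp at 77. Counting each region once by its strongest peak gave 52 of 96 inside (54.2%). At the 102 members with a gene of 300 bp or less, the median distance from the gene start was 64.5 bp, with quartiles of 2.25 and 204 bp. Where the summit was inside such a gene (46 peaks), it lay 43 bp from the start in the median, 26 of 46 within the first 50 bp. At the 411 of 588 tRNA gene peaks with the summit inside a tRNA gene, that distance was 13 bp in the median with quartiles of 11 and 17 bp. The quartiles for short genes of members, 20.5 and 90.5 bp, were wider apart.

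Gene length at the members ranged from 49 bp at C49A1.13 to 9094 bp at Y59E1B.1, with a median of 147 bp and quartiles of 89 and 220 bp. That median counts peaks, so a gene with several summits is counted several times. Over the 99 nearest genes, each counted once, the median was 141 bp, as it was over all 8049 genes of these classes. Genes of 300 bp or less made up 84.3% of members, counted by peak, and 92.7% of all those genes, each counted once. Signal values at short genes had a median of 272 (102 peaks) and at longer genes of 259 (19 peaks), with overlapping quartiles of 88.4 to 766 and 139 to 455. In replicate 1 the medians were 206 and 202, and in replicate 2 they were 134 and 177, so the order of short and longer genes differed between the replicates. Of the members at 1000 or more, 19 were at short genes and 1, linc-75, at a longer one.

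Among lncRNA genes linc-75 on X was highest, with 1692 in the pooled list, 940 in replicate 1 and 750 in replicate 2, but its summit lay 412 bp before the gene of 852 bp. linc-7, also on X, was the only gene with 3 or more member summits. The gene is 1130 bp long, and its 4 summits had 642, 399, 172 and 141 in the pooled list. The highest of them had a full box set on the minus strand, opposite to the gene. At linc-102 on X, whose 2 summits had 379 and 150, the stronger lay 150 bp from the gene and its window was 95.2% identical over 42 bases to the tRNA pseudogene F53B1.t1. The antisense RNA genes were weaker: anr-3 on chromosome IV had 259 with the summit 20 bp from its start and 70.7 at a second summit, and anr-7 on chromosome V had 50.5 with the summit 364 bp away.

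Just above the minimum were Y82E9BR.30 (51.1), anr-7 (50.5) and T19C4.16 (50.3), and just below it, by the same gene rule, peaks at T04C10.8 (49.8), Y41E3.459 (48.6) and Y43F8C.18 (48.2). None of the 3 members was in the optimal list. The 11 members outside that list had signal values of 50.3 to 59.6.

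A B box within 100 bp of the summit was found at 55 of 121 members (45.5%, Wilson 36.9 to 54.3%), against 60.7% of all pooled peaks of signal value 50 or more. The share was 88.4% of 588 tRNA gene peaks, 37.1% of 105 snoRNA gene peaks, 52.6% of 820 peaks at other genes only, 55.2% of 444 peaks at no gene and 4.29% of 99774 windows of 201 bases spaced evenly over the genome. The full set of A box, B box and T run was found at 35 members (28.9%, Wilson 21.6 to 37.6%), against 50.1% of all pooled peaks of 50 or more and 1.03% of the genome windows. For the B box and for the full set, the interval of the members lay above that of the windows and below that of the tRNA gene peaks, which was not tested further. Members with a B box had a median signal value of 441 and those without of 171. The strongest peaks of the 96 regions made up 52 of the members with a B box. Most of the 25 weaker summits of a region thus count among those without. In the full sets the A box started 44 bp before the B box in the median, with quartiles of 43 and 45 bp, and the summit lay 8 bp after the start of the A box. The set was on the strand of the nearest gene at 23 of 35.

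**Figure D5:**
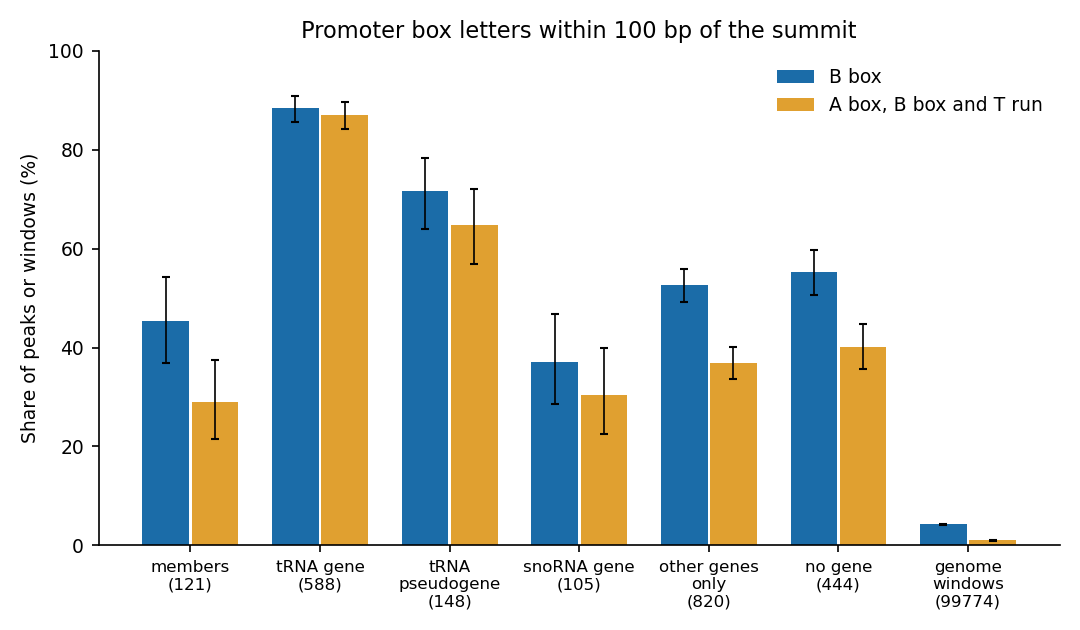
Share of peaks or windows, in percent, with a B box (blue) and with A box, B box and T run (yellow) within 100 bp of the summit or window centre, for the members, 5 other classes of pooled peaks of signal value 50 or more, and genome windows; error bars are 95% Wilson intervals over peaks. The members stand at 45.5% and 28.9%, between the tRNA gene peaks at 88.4% and 87.1% and the genome windows at 4.29% and 1.03%.

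Likeness to annotated small RNA genes of the excluded classes was measured by aligning the 201 bases around the summit to them. Of the 121 members, 41 were most like a tRNA gene or tRNA pseudogene (33.9%, Wilson 26.1 to 42.7%). Counted by peak in the same way, that share was 46.8% at peaks at other genes only, 45.0% at peaks at no gene and 0.501% of 4989 genome windows. Of the 96 regions, taken by their strongest peak, 41 were tRNA-like (42.7%, Wilson 33.3 to 52.7%). Identity in the 41 regions had a median of 85.7% over 66 aligned bases, and 36 of them held a B box, against 16 of the other 55 regions. Likeness and B box were read from the same 201 bases, and the B box is part of tRNA genes. That difference is therefore largely fixed by how likeness was measured. The aligned stretch overlapped the nearest gene at 19 of these 41 regions, and the summit was inside that gene at 14. One group of 36 regions was linked by alignment, from C05G5.9 at 2174 to F02E8.10 at 58.8, and 33 of these were tRNA-like. They were joined through chains of alignments, and 163 of the 630 pairs within the group aligned directly. At T19D2.10 on X (614), named after its values were seen, the stretch most like a tRNA pseudogene had 46 copies in the genome. Of these, 37 were at a gene of the excluded classes and 16 lay within 100 bp of a pooled peak of 50 or more. The copies include the T19D2.10 stretch itself, which was chosen for such a peak.

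Other members were like genes of other classes. Windows of 7 regions were most like a snoRNA gene, 2 like the SRP RNA gene srpr-3 and 1 like a miRNA gene. Likeness to any excluded class, tRNA included, was found at 52 of 121 members (43.0%). That share was 51.7% at peaks at other genes only, 51.6% at peaks at no gene and 6.29% of 4989 genome windows. Of the 52 members, 41 were most like a tRNA gene or tRNA pseudogene and 11 like other classes. Of the 314 genome windows with likeness, 25 were most like a tRNA gene or tRNA pseudogene and the rest like other classes. The shares with tRNA included therefore do not compare likeness to the other classes alone. SRP RNA is the RNA core of the signal recognition particle, which brings ribosomes to the endoplasmic reticulum. F01G12.19 (chrX:16371114-16371167, plus strand, signal value 327) and F22H10.10 (chrX:16698133-16698176, plus, 221), named after their values were seen, held the stretch that resembles the start of srpr-3 (chrV:9293578-9293632, minus). Capitals in F22H10.10 mark the letters that differ from srpr-3, and F01G12.19 aligned with a gap and is shown without capitals.
F01G12.19: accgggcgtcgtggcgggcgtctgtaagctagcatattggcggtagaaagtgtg
F22H10.10: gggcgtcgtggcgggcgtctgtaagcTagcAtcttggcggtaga
srpr-3: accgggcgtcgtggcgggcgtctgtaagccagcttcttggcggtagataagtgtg

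The alignments to srpr-3 were 92.7% identical over 55 columns at F01G12.19 and 95.5% over 44 at F22H10.10. F01G12.19 had 214 in replicate 1 and 113 in replicate 2, and F22H10.10 had 123 and 101. C09G1.7 (476), C05D9.12 (355) and the 9094-bp gene Y59E1B.1 (138) were linked to these by alignment, and all 5 regions are on X. The windows of C09G1.7, C05D9.12 and Y59E1B.1 were most like C14E2.12, a gene annotated as snoRNA, at 93.0, 84.4 and 96.6% identity over 86, 77 and 88 bases. At Y59E1B.1 the summit lay 6213 bp from the gene start, so the length of that gene does not describe the site.

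By chromosome, X held 55 of the 121 members (45.5%, Wilson 36.9 to 54.3%) and 41 of the 96 regions (42.7%), against 24.6% of the other pooled peaks of 50 or more and 31.9% of the 8049 genes. Of the tRNA-like regions 21 of 41 were on X, and of the other regions 20 of 55. The median signal value on X was 355, between those of chromosome III (441) and chromosome II (349). Summits lay outside protein-coding genes at 78 members, in an intron at 42 and in an exon at 1, which is in ceh-8. Of the 42 in introns, 19 had the nearest non-coding gene on the strand of the host gene.

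The nearest tRNA gene or tRNA pseudogene was 30123 bp from the summit in the median, and 4 members had one within 1000 bp. T27B1.3 on X, named after its values were seen, lay nearest at 190 bp. Its pooled value was 87.7, and the strongest overlapping replicate peaks, each on the scale of its own list, had 609 and 409. The tRNA gene or pseudogene, T27B1.t1, starts inside the annotated T27B1.3 gene, just beyond the widened interval of this peak. At this summit 29.2% of the 31-base words of the window occur once in the genome. Whether the replicate values include signal from T27B1.t1 was not tested. Sequence repeats also bear on these values: at 66 members every 31-base word of the window occurs once in the genome, and at 11 fewer than 50% of the words do. How the authors placed reads that match several sites is not given in the sources used here.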

How the data were processed

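RPC-1 ChIP-seq peak lists of 2 replicate libraries of 1 group were used on ce11. Per the deposited file descriptions, the authors made each replicate list with a control alignment, the pooled list from both replicates, and the optimal list through the irreproducible discovery rate. Aligner, peak caller, versions and threshold: not given in the sources used here. Signal values are a deposited score from the caller the authors used, without fixed range, on a scale of its own in each list, so values of different lists are only set side by side. The RefSeq annotation of WBcel235 (the assembly of ce11) gave the genes. Depth is unknown, and Wilson intervals at 95% cover counting error over peaks only.

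The member rule is given with the results. Per replicate, the value is the strongest overlapping peak of that list. Each member belongs to the gene nearest its summit, and ties go to the shorter gene. Box letters were searched on both strands within 100 bp of the summit, with the A box 20 to 90 bp before the B box and the T run within 150 bp after it. Likeness used blastn (BLAST+ 2.17.0, word size 7, E value of 0.001 or less; 1e-04 between members, 1e-05 for genome copies). Scripts ran in Python 3.11.15 with pandas 2.3.3, numpy 2.4.6 and statsmodels 0.14.6, and the box search was tested on simulated sequence.

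Named genes are the 15 highest members, the 15 highest candidates, the 10 highest members with a full box set, the 5 highest lncRNA and antisense RNA members each, the shortest and longest genes, those next to the minimum and genes with 3 or more member peaks. The members and lists were chosen with earlier results of these data known. The upstream pair, the shared words and the likeness groups were added after seeing the data. No test was made, since 1 group has no comparison. Alternatives covered the minimum, margin, list, replicate, gene length, window and letters.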

Additional observations from a re-analysis of the deposited data

How the results depend on the processing

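Of 55 alternative settings over 13 results, 41 kept the value within its interval, its replicate spread or 1.5 times the count. The number of members ranged from 89 to 132 over all settings. Taking the 2318 strongest peaks of a single replicate list gave 122 members in replicate 1 and 129 in replicate 2. Of the 99 genes nearest a member summit, 88 and 85 were among theirs. The share with the summit inside the gene was 63.6% when within 100 bp was counted. With the summits of a single replicate it was 47.1 to 47.9%, but the members and their genes stayed those of the pooled list. The B box share was 28.1% with a window of 50 bp, 54.5% with 200 bp and 24.0% with stricter letters, a G before GTTCGANNC. The number of candidates was 15 at a signal value of 1000 or more. The median distance from the start of short genes was 59 bp at genes of 200 bp or less and 50 bp in the optimal list. It was 43 bp where the summit was inside, and 53.5 to 60 bp with single-replicate summits at the same members. The median signal value at longer genes was 180 with a limit of 200 bp. On the scales of the single replicates, for the same members, it was 177 to 202, and at short genes 134 to 206. Short genes were below longer ones by the values of replicate 2. Depth is unknown, so nothing is said of sites without a peak. No paired analysis was possible because there is only 1 group.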
